A study of Homo sapiens with 6 samples.

Results

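Interferon regulatory factors (IRFs) and signal transducers and activators of transcription (STATs) were described in 2 human pancreatic ductal adenocarcinoma lines with and without KDM6A, a histone H3 lysine 27 demethylase. The members were all probe sets annotated with 1 gene symbol among IRF1, IRF2, IRF3, IRF5, IRF7, IRF9, STAT2 and STAT3. For 7 of these 8 genes there were 13 such probe sets, out of 19775 genes with a probe set of 1 symbol, and STAT2 was not analysed here. Of the 13 probe sets, 11 exceeded the median of all probe sets on at least 1 array and were tested, so that all 7 genes were tested among 14387.

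Cells answer type I and type III interferons through receptors whose kinases phosphorylate STAT2 and a partner STAT. These 2 proteins bind IRF9 in a complex called ISGF3, which recognises the interferon-stimulated response element (ISRE) of antiviral genes. Interferon gamma acts through a STAT dimer on a palindromic site, and IRF1 is itself a target that carries the response on to antigen presentation genes. IRF2 binds the same element as IRF1 and is known mainly as its antagonist. IRF3, IRF5 and IRF7 lie downstream of sensors of foreign nucleic acid and switch on the interferon genes, and IRF7 is induced by interferon in turn. STAT3 is the main effector of interleukin 6 and related cytokines and is known to be active in pancreatic ductal adenocarcinoma.

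The 4 groups were Panc1 control (1 array), Panc1 KDM6A knockout (1 array), BxPC3 control (2 arrays) and BxPC3 KDM6A knockout (2 arrays). Both lines are established from pancreatic ductal adenocarcinomas, and per the labels' protocols they were grown in different media, both with fetal bovine serum. Knockout cells had received a lentiCRISPR v2 vector with a guide against KDM6A, had been selected with puromycin and had been cloned by limiting dilution. The number of clones behind a knockout array, and the vector state of the control cells, are not given in the sources used here. The effects of KDM6A loss, of the vector and of cloning cannot be told apart. The labels do not tell whether separate cultures lie behind the 2 arrays per BxPC3 group, so that p-values measure only the spread between arrays, which may be technical. No interferon or cytokine treatment is named.

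All values are log2 expression summaries from RMA, a method that subtracts background and scales the arrays to each other. Array medians lay between 4.75 and 5.06. A difference is always knockout minus control on the log2 scale, and an error of a BxPC3 difference is its standard error from limma with n = 2 arrays per group. Exactly equal values were frequent between arrays of a line and numbered 0 between arrays of different lines, so that levels were compared within a line only. KDM6A read 6.73 in the Panc1 control and 4.06 in the Panc1 knockout, and 8.02 and 7.85 against 7.29 and 7.01 in BxPC3, where it fell by 0.79 (adjusted p = 0.0329 by limma, and 0.0843 to 0.215 without control array 1, control array 2 or knockout array 2, 0.0611 with dim probe sets kept and 0.0791 with crossed pairs as a block). Epithelial markers matched the labelled cell type, with 7 of 7 above the array median on all 6 arrays, KRT18 and KRT19 among them. Their mean was 9.81 on the Panc1 control and 9.37 on the Panc1 knockout array, where CDH1 was 7.87 and 5.78 and EPCAM 8.47 and 7.54, and in BxPC3 11.91 to 11.92 on control and 11.70 to 11.77 on knockout arrays. Of 11 immune markers 5 lay under the median of each of the 6 arrays, among them PTPRC, which encodes the pan-leukocyte antigen CD45, and LYZ. The mean over the 11 was 4.06 and 4.18 on the control and knockout arrays of Panc1, and in BxPC3 4.25 to 4.29 on control and 4.27 to 4.35 on knockout arrays. CD3E was the 1 immune marker above the median on all 6 arrays. The mean of 4 endothelial markers was 5.12 to 5.18 on BxPC3 control and 4.56 to 4.70 on knockout arrays, with CDH5 at 6.74 and 6.91 against 4.86 and 4.41. That of 8 fibroblast markers was 5.05 to 5.18 against 4.79 to 4.81, with LUM, under the median on all 6 arrays, at 4.56 and 4.56 against 2.45 and 2.85. In Panc1 the endothelial mean was 4.17 and 4.28 and the fibroblast mean 4.48 and 4.70, in control and knockout in turn. The part of these shifts in the results was not tested. Both are cultured lines, so these markers were read as levels of single genes and not as shares of cells. In BxPC3 the other endothelial markers, PECAM1, VWF and KDR, overlapped between the groups.

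The DNA before the starts of the member genes was read first, since IRF1 and IRF9, the members with the smallest p in BxPC3, are among those known to be interferon targets themselves. RefSeq promoter windows on GRCh38.p14 were at hand for 5 of the 8 listed genes, IRF1, IRF5, IRF9, STAT2 and STAT3, and the 250 bases before each start were searched on both strands. Among them IRF1 and IRF9 held the STAT palindrome TTCNNNGAA, and IRF5, STAT2 and STAT3 did not. The ISRE core GAAANNGAAA was in none of these windows. Over all 35116 windows the palindrome was found in 6.57% and the ISRE core in 3.02%. By gene these shares were 8.09% and 3.71% of the 27305 genes with a window. The palindrome thus stands before 2208 genes, and a match is a description of letters and not evidence of binding. The IRF1 stretch lies at chr5:132490774-132491023 on the minus strand and the IRF9 stretch at chr14:24161015-24161264 on the plus strand. Both are printed 5′ to 3′ up to the base before the start, with the palindrome in capitals.
IRF1: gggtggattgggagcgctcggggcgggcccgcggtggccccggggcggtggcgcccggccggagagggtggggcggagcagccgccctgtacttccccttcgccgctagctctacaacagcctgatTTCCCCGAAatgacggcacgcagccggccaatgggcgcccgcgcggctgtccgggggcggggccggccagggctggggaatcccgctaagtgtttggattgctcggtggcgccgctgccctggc
IRF9: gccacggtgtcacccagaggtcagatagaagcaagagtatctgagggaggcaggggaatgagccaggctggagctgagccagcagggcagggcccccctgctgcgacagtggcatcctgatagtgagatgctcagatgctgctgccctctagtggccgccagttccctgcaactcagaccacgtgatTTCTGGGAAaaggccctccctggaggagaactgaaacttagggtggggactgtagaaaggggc

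In the IRF1 window the palindrome, TTCCCCGAA, begins 124 bases before the start, and in the IRF9 window, as TTCTGGGAA, it begins 63 bases before it. For comparison, 4 target genes of type I interferon named further on, IFIT1, RSAD2, ISG20 and IFITM1, are shown with the ISRE core in capitals within flanks of 10 bases and printed on the strand of the gene, where the core or its reverse complement appears. These stretches lie at chr10:89392497-89392526 and chr10:89392510-89392539 (IFIT1, 2 overlapping stretches), chr2:6877622-6877651 (RSAD2), chr15:88638937-88638966 (ISG20) and chr11:313990-314019 (IFITM1), all on the plus strand of GRCh38.p14.
IFIT1, 116 bases before the start: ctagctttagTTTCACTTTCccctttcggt
IFIT1, 103 bases before the start: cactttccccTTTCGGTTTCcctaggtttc
RSAD2: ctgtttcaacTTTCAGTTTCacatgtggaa
ISG20: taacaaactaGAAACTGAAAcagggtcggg
IFITM1: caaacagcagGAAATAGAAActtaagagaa

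In BxPC3 the differences of the members were small and none passed the test. IRF7 lay under the median of every BxPC3 array, so its difference there cannot be sized. In Panc1 the members with the largest differences were IRF9, IRF1 and IRF7, all lower on the knockout array. In BxPC3 all 7 genes had differences below 0, between -0.37 and -0.05, and none passed the test (0 of 7 at an adjusted p under 0.05 by limma, and 3 of 7, IRF9, IRF1 and IRF2, at an unadjusted p under 0.05, as were 19.9% of all genes tested). By adjusted p, 4.72% of all genes tested were called in either direction and 3.58% as lower. The median of the members was -0.14 against 0.00 for all genes tested, 49.3% of which lay below 0. In 5 of the 7 genes both knockout arrays lay below both control arrays, which 26.8% of all genes tested also showed. In Panc1, 6 of 7 were below 0 with a median of -0.37, against 0.00 over all genes, and IRF9 was the 1 member at least 2-fold lower, as were 3.28% of all genes tested.

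**Figure D1:**
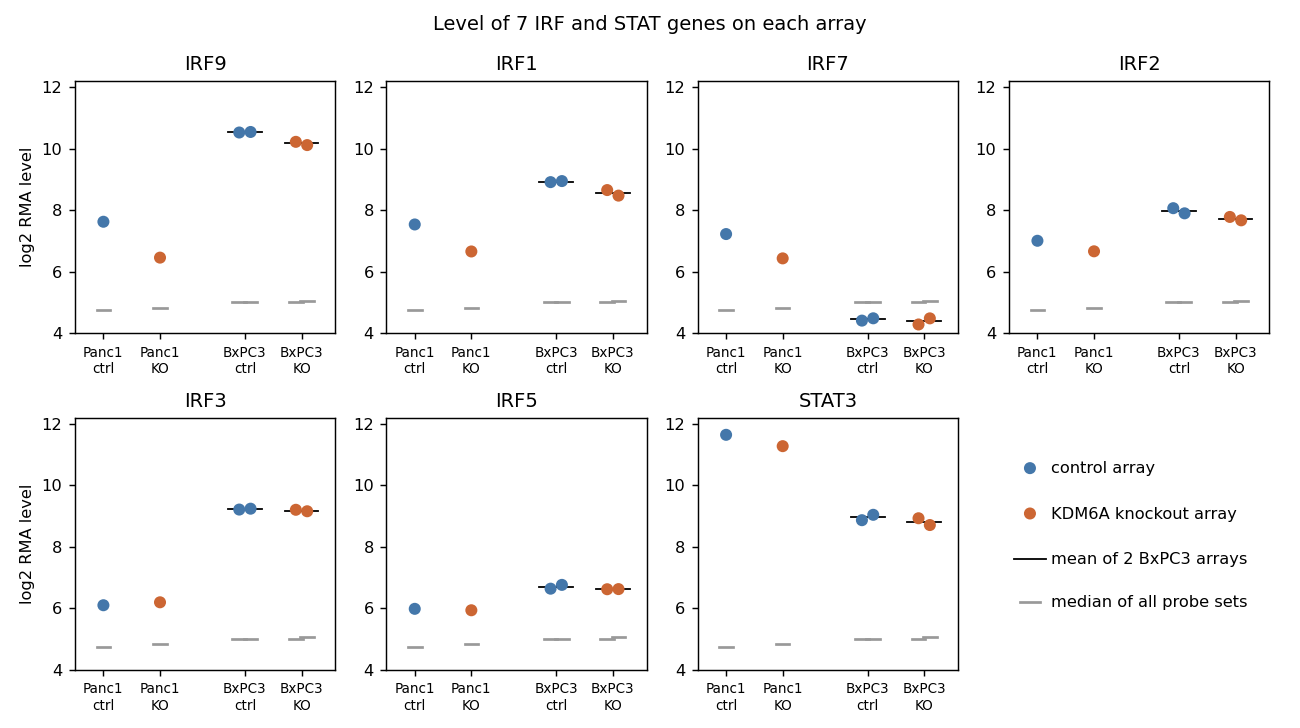
Level (log2 RMA) of the 7 genes on each of the 6 arrays, with control arrays in blue, KDM6A knockout arrays in orange, the mean of a BxPC3 group as a black bar and each array's median over all probe sets as a grey bar. Levels may be compared within a line only: IRF9, IRF1 and IRF7 sit lower on the Panc1 knockout than on the Panc1 control array, and IRF7 lies under the array median on all 4 BxPC3 arrays.

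IRF9, the DNA-binding subunit of ISGF3, had the smallest p of the members in BxPC3. It read 10.53 and 10.54 on the control arrays and 10.22 and 10.12 on the knockout arrays. Both knockout arrays were below both control arrays, and the gap between the groups exceeded the gap within either. The difference was -0.37 ± 0.07 (SE, 95% interval -0.55 to -0.18), or 1.29-fold, with an adjusted p = 0.0646 by limma. The call depended on processing: IRF9 passed under 5 of 14 alternatives, with adjusted p between 0.0104 and 0.506 over all 14. In Panc1 it read 7.62 in the control and 6.45 in the knockout, which is 1.17 lower (difference -1.17), or 2.25-fold, with no replicate check. Centring used each array's median over the genes tested, not over all probe sets (4.75 on the Panc1 control, 4.83 on the knockout array). It gave -0.97 for IRF9, and quantile scaling gave -0.99. Centring raised the median of all Panc1 differences to 0.20. Every Panc1 value given below with arrays centred carries this rise.

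IRF1, the activator induced by interferon gamma, was read by 2 probe sets. On the brighter it was 8.91 and 8.94 on BxPC3 control arrays and 8.65 and 8.47 on knockout arrays, a difference of -0.37 ± 0.09 (95% interval -0.59 to -0.15, adjusted p = 0.0969 by limma). On the other it was 8.03 and 8.02 against 7.61 and 7.61, a difference of -0.41 ± 0.07. Fitted over the 27088 probe sets of 1 symbol that passed the filter, of which 2.56% were called lower, this second probe set had an adjusted p = 0.0506 and the brighter one 0.125. Both probe sets had all knockout arrays below all control arrays. As a gene IRF1 passed under 3 of 14 alternatives, among them the mean of its probe sets (-0.39, adjusted p = 0.0321), with adjusted p between 0.0307 and 0.585 over all 14. In Panc1 the probe sets read 7.53 and 6.90 on the control and 6.65 and 6.06 in the knockout, with differences of -0.88 and -0.84. The first of these was -0.68 with arrays centred.

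IRF2, the repressor that shares the element of IRF1, had 1 probe set. It read 8.06 and 7.90 on BxPC3 control arrays and 7.78 and 7.67 on knockout arrays. The groups did not overlap, but the gap between them was smaller than that between the control arrays, and the difference of -0.26 ± 0.09 (95% interval -0.49 to -0.03) had an adjusted p = 0.208 by limma. In Panc1 it read 7.00 and 6.66, a difference of -0.34, or -0.15 with arrays centred.

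IRF7, which amplifies interferon production, was measurable in Panc1 but not in BxPC3. In BxPC3 it read 4.40 and 4.48 on control and 4.28 and 4.48 on knockout arrays, all under the array medians, where RMA holds dim probe sets at a background level and understates differences. The groups overlapped and the difference was -0.06 ± 0.09 (adjusted p = 0.766 by limma). In Panc1 it read 7.22 in the control and 6.43 in the knockout (difference -0.79), or 1.73-fold, and -0.59 with arrays centred. Its 1 probe set has an identifier ending in _s_at and may read similar transcripts.

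IRF3, the constitutive factor that starts interferon production, had the smallest difference of the members in BxPC3. It read 9.21 and 9.24 on BxPC3 control and 9.20 and 9.16 on knockout arrays, a difference of -0.05 ± 0.07 (95% interval -0.22 to 0.12, adjusted p = 0.767 by limma). In Panc1 it read 6.10 and 6.19, a difference of 0.10, or 0.29 with arrays centred. IRF3 was thus the 1 member above 0 in Panc1 in the values as deposited.

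IRF5, a factor of macrophages and B cells that is low in most epithelia, had 3 probe sets. The brightest read 6.64 and 6.76 on BxPC3 control and 6.62 and 6.62 on knockout arrays, a difference of -0.08 ± 0.07 (adjusted p = 0.638 by limma), and 5.98 and 5.94 in Panc1, a difference of -0.05. A second read 5.46 and 5.36 against 5.36 and 5.08 in BxPC3, where the lower control and the higher knockout array read alike, and 4.73 and 5.22 in Panc1, a difference of 0.50. The third was below the median of every array and was not tested; it read 4.36 and 4.27 in Panc1, 4.92 and 4.85 on BxPC3 control and 4.81 and 5.04 on BxPC3 knockout arrays. The Panc1 direction of IRF5 therefore differed between probe sets. On the brightest it turned to 0.15 with arrays centred and to 0.03 with quantile scaling, beside medians of 0.20 and 0.05 over all genes tested.

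STAT3, the effector of interleukin 6 signalling, was bright on 3 of its 4 probe sets. The brightest read 8.87 and 9.04 on BxPC3 control and 8.93 and 8.71 on knockout arrays, where the groups overlapped, and gave -0.14 ± 0.11 (adjusted p = 0.565 by limma). The others above the array median gave -0.05 ± 0.09 and -0.20 ± 0.08, of which the latter, with 8.83 and 8.77 against 8.63 and 8.56, was the 1 without overlap (adjusted p = 0.259 over probe sets). In Panc1 these 3 probe sets read 11.64, 10.70 and 9.98 on the control and 11.28, 10.22 and 9.36 in the knockout. The differences were -0.37, -0.49 and -0.62, all lower on the knockout array, and the first was -0.17 with arrays centred. The fourth, below the median of every array and not tested, read 4.45 and 4.54 in Panc1, 4.05 and 3.55 on BxPC3 control and 4.22 and 4.27 on BxPC3 knockout arrays.

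**Figure D2:**
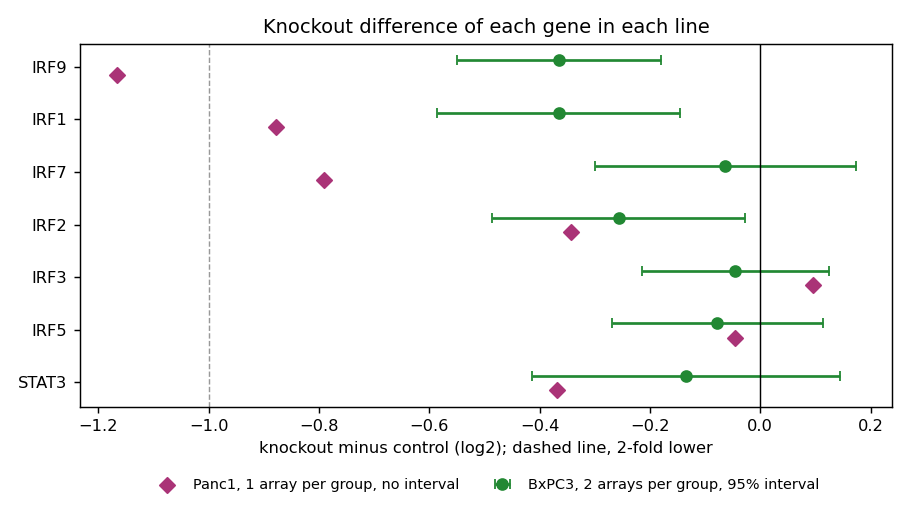
Knockout minus control (log2) for each gene, with BxPC3 as green circles with the 95% interval from limma (2 arrays per group) and Panc1 as purple diamonds (1 array per group, no interval). The BxPC3 intervals of IRF9, IRF1 and IRF2 lie below 0 before adjustment for multiple tests, and in Panc1 only IRF9, at -1.17, lies past the dashed line of a 2-fold lower level.

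Whether the knockout difference differed between the lines was tested as an interaction, with the spread of the BxPC3 arrays taken for Panc1 as well. Of the members, IRF9 passed with both lines above the array median, where 14% of all genes tested passed. The Panc1 difference of IRF9 was lower than that of BxPC3 by 0.80 on the log2 scale (effect -0.80 ± 0.13, 95% interval -1.12 to -0.48, adjusted p = 0.0222 by limma). The call ended without either control array of BxPC3 (adjusted p = 0.127 and 0.125). IRF7 is not counted: it entered the test through the Panc1 arrays alone and was under the array median on all 4 BxPC3 arrays, so the size of a difference between the lines cannot be read for it. IRF1 did not pass (-0.51 ± 0.15, adjusted p = 0.0819), and passed under 3 of 11 alternatives, one of them without knockout array 2 (0.0338). The effects of IRF2, IRF3, IRF5 and STAT3 ranged from -0.23 to 0.14 with adjusted p between 0.442 and 0.892.

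Over both lines, with the line as a term in the fit, none of the 7 members passed by limma (3 of 7 at an unadjusted p under 0.05). Over all genes tested 0.0834% passed, and 11.8% had an unadjusted p under 0.05. IRF9 differed by -0.63 ± 0.17 (adjusted p = 0.280), IRF1 by -0.54 ± 0.13 (0.238) and IRF2 by -0.29 ± 0.09 (0.318). The other 4 lay between -0.31 and 0.00.

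The genes whose 6 values, centred within each line, lay nearest to those of a member were found by Euclidean distance, for the 3 members with the smallest p in BxPC3. Nearest to IRF9 were AKNA (distance 0.03, differences -0.37 in BxPC3 and -1.13 in Panc1), ARHGEF19 (0.06) and ERAP2 (0.08), an aminopeptidase of the endoplasmic reticulum that trims peptides for class I molecules. Nearest to IRF1 were ELOVL7 (0.06), an enzyme of fatty acid elongation, VWA1 (0.07) and MVP (0.07), the major vault protein. Nearest to IRF2 were ANKRD46 (0.05), GSDMB (0.07), a gasdermin, and GOLPH3L (0.08). With 6 arrays and 14387 genes close neighbours are easily found, and the distances are a description only.

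The pathway around the members was described by 8 gene lists. None was limited to genes that moved, but all were written with earlier results of these data known. Their counts stand beside 3.58% of all genes tested called lower in BxPC3 and 3.28% at least 2-fold lower in Panc1. Upstream, 4 of 14 ligand genes were tested; 9 others, all interferon genes, lay under the median of each of the 6 arrays, and 1 was not analysed here. IL6, the ligand of the STAT3 pathway, fell in BxPC3 from 6.37 to 5.36 (-1.02 ± 0.11, adjusted p = 0.0147 by limma, and 0.0995 and 0.108 without control array 1 or 2). It was below the array median in Panc1, at 4.07 and 4.16. LIF, of the same family, was at -0.68 ± 0.15 in BxPC3 (adjusted p = 0.0843, and 0.0408 without knockout array 1) and -0.65 in Panc1, and OSM at -0.15 and 0.32.

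Among the receptors and Janus kinases 1 of 15 passed the test in BxPC3 and none was 2-fold different in Panc1, with medians of -0.05 and -0.10. The gene that passed was LIFR, the receptor of LIF (-0.45 ± 0.07, adjusted p = 0.0404), whose call ended without any 1 BxPC3 array (0.0691 to 0.398), with either pairing of the arrays as a block (0.116 and 0.0658) and under 3 other settings. OSMR was at -0.29 and -0.28, IL6R at -0.30 and -0.10, and IFNGR2, a subunit of the interferon gamma receptor, at -0.17 and -0.54, in BxPC3 and Panc1 in turn. In the rest of the IRF and STAT family, where 6 of 8 entries were tested and the other 2 were not analysed here, none passed in BxPC3 by limma (1, STAT5B, at an unadjusted p under 0.05; median 0.09) and none was 2-fold different in Panc1 (median 0.07). STAT5B was at 0.28 and -0.11, STAT6 at 0.15 and -0.72 and STAT4 at 0.14 and -0.09. IRF4 and IRF8 lay under the median of every BxPC3 array, and STAT4 under that of both control arrays. Their BxPC3 values, which enter the median of 0.09, are thus near background.

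Of 14 genes of innate sensing upstream of IRF3 and IRF7, 4 fell in BxPC3 and none rose, with a median of -0.25, and none was 2-fold different in Panc1 (median -0.06). They were the RNA sensors RIGI (-0.91 ± 0.09, adjusted p = 0.0106) and IFIH1 (-1.05 ± 0.14, adjusted p = 0.0235), which are known interferon targets themselves, TLR3, the endosomal receptor of double-stranded RNA (-0.58 ± 0.10, adjusted p = 0.0398), and STING1, the adaptor of DNA sensing (-0.54 ± 0.09, adjusted p = 0.0458), all by limma. Without control array 1 or control array 2 none of the 4 passed, with adjusted p between 0.0814 and 0.328. TLR3 and STING1 also missed the threshold without knockout array 2 (0.0649 and 0.0691), with replicate number as a block (0.0799 and 0.0904), with the crossed block (0.0640 and 0.0692) and with no filter (0.0737 and 0.0836). In Panc1 RIGI was at -0.28, IFIH1 at -0.65 and STING1 at -0.66, and TLR3 read 2.27 on both arrays, below their medians. Of 19 negative regulators 1 fell, USP18 (-1.47 ± 0.10, adjusted p = 0.0045), the deconjugase of ISG15 that also blocks the type I receptor, and it was at 0.30 in Panc1. SOCS1 was at -0.37 and -0.04, and SOCS2 at 0.32 (adjusted p = 0.0745) and -0.89.

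Downstream of the members the picture differed in BxPC3. Of 36 target genes of type I interferon 29 fell and none rose, where 3.58% of all genes tested were called lower. All 36 lay below 0, and the median was -0.78, beside 0 of 7 members called and a member median of -0.14. MX1, at -0.01, lay under the median of every BxPC3 array, so its sign there cannot be read. RSAD2, an antiviral radical-SAM enzyme (8.43 to 6.31, -2.12 ± 0.09, adjusted p = 0.0020), IFIT1, which binds foreign RNA (11.66 to 10.14, -1.52 ± 0.09, adjusted p = 0.0034), and ISG20, an exonuclease (8.95 to 7.67, -1.28 ± 0.08, adjusted p = 0.0040), had the smallest p by limma. In BxPC3 these 3 stayed past the threshold under every alternative that tested them. The count of 29 was 4 without control array 1, 3 without control array 2, 17 without knockout array 2 and 19 of the genes above the array median on all 6 arrays. The filter on all 6 arrays also took genes of the list out of the test, RSAD2 among them. In Panc1, 31 of 36 were below 0 (1 of the others, OAS1, read the same on both arrays), with a median of -0.56. There 7 were at least 2-fold lower, as were 3.28% of all genes tested. Some of the 36 lay under the median of both Panc1 arrays, where signs and sizes are near background. Among them were RSAD2 (3.49 and 2.92), CMPK2 (3.69 and 3.11) and TRIM22 (3.07 and 2.72), control and knockout in turn. With arrays centred the Panc1 median of the 36 was -0.36, beside 0.20 over all genes tested, and 4 were 2-fold lower. IFITM1, a membrane protein that blocks virus entry, read 11.30 in the Panc1 control and 6.88 in the knockout (difference -4.42). In BxPC3 it fell by 0.52 (adjusted p = 0.0200), a call that ended without any 1 array (0.0516 to 0.272) and with either block (0.0691 and 0.0517). Among these 36 genes ISG20 was the 1 that passed over both lines (adjusted p = 0.0227 by limma). That call ended without any 1 BxPC3 array (0.184 to 0.356), with arrays centred (0.0768) and with quantile scaling (0.0628).

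Of 21 tested target genes of interferon gamma and IRF1, 10 fell in BxPC3 and none rose, with a median of -0.50. In Panc1, 2 were at least 2-fold lower and the median was -0.14. With arrays centred the Panc1 median of the list was 0.06, beside 0.20 over all genes tested. Some of the list, CXCL10 and CXCL11 among them, lay under the median of both Panc1 arrays. IDO1, a tryptophan-degrading enzyme (-1.26 ± 0.08, adjusted p = 0.0039), the chemokine CXCL10 (-0.94 ± 0.10, adjusted p = 0.0128) and the immunoproteasome subunit PSMB9 (-0.60 ± 0.06, adjusted p = 0.0133) had the smallest p by limma. In Panc1 they were at 0.06, -0.48 and -0.49. The call of CXCL10 ended without any 1 BxPC3 array (0.0507 to 0.0869) and that of PSMB9 without either control array (0.160 and 0.180). The count of 10 was 1 without either control array, 4 without knockout array 2 and 6 of the genes above the array median on all arrays. The filter on all arrays also took genes of this list out of the test, CXCL10 among them. GBP3, an interferon-induced GTPase, differed most in Panc1 (-1.85), beside -0.42 in BxPC3 (adjusted p = 0.0894).

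Of 17 tested target genes of STAT3, 1 fell in BxPC3 and none rose, with a median of -0.09, where 3.58% of all genes tested were called lower. The count was 0 without either control array, 2 with quantile scaling, cyclic loess or the mean of probe sets, and 6 with a prior trend. The gene that fell was MUC1, a membrane mucin (-1.26 ± 0.13, adjusted p = 0.0119 by limma), which missed the threshold without either control array (0.0750 and 0.0794). BCL2L1, a survival factor, was at -0.36 (adjusted p = 0.0703). In Panc1 the median was -0.37, or -0.17 with arrays centred, and 1 gene was 2-fold lower, SERPINA3, an acute phase protease inhibitor (-2.13), while MUC1 was at 0.19 and BCL2L1 at -0.37. SERPINA3 was below the array median on BxPC3 arrays.

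The lists were also set beside the promoter windows. The ISRE core was found before 21 of the 30 type I interferon target genes that had a window (70%), before 11 of 17 targets of interferon gamma and IRF1 (64.7%) and before 0 of 13 targets of STAT3, with 3.71% over the 27305 genes with a window. The STAT palindrome was found before 9 of 30 (30%), 7 of 17 (41.2%) and 0 of 13 of the same lists, with 8.09% over all genes. Genes of the interferon target lists are known for such elements, while the STAT3 list held no match to either. The shares describe the lists and say nothing of the knockout.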

How the data were processed

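Total RNA of 6 samples was hybridised to 1-colour expression arrays. The deposited values are log2 RMA summaries per probe set, made by the authors with RMA and the affy package, per the submitters' processing notes, which give no version; RMA scaling removes shifts common to most genes. The table held 54613 probe sets, of which the platform annotation named 41091 with 1 symbol, 1801 with several and 11721 with none; only the first kind was used. Each gene stands for its probe set of highest mean, and was tested where this exceeded the median of all probe sets on at least 1 of 6 arrays. limma 3.58.1 (R 4.3.3) fitted 1 mean per group, with 2 residual and 3.08 prior degrees of freedom, all residual ones from BxPC3, and Benjamini-Hochberg adjustment over all genes or probe sets tested; adjusted p under 0.05 was called. The steps were tested on simulated data, where the pass mark was that log2 differences of 2 be mostly recovered in BxPC3. That size is larger than any member difference there, so the check does not cover differences as small as theirs. Members and lists were chosen with earlier results of these data known. From each list the 3 genes with the smallest BxPC3 p and the 1 with the largest Panc1 difference are named. Of 150 list entries, 6 had no probe set of 1 symbol. Alternatives covered the filter, scaling, variance prior, probe set choice, arrays in the fit, pairing and leaving out each BxPC3 array. The number of arrays limits the precision.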

Additional observations from a re-analysis of the deposited data

Results flagged for a closer look

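By the interaction test in limma, the knockout difference of IRF9 was lower in Panc1 than in BxPC3, with an effect of -0.80 (adjusted p = 0.0222, and 0.127 and 0.125 without BxPC3 control array 1 or 2). With 1 array per Panc1 group, the test takes its spread from the BxPC3 arrays alone, and 14% of all genes tested passed it. The fit also gave -0.73 for IRF7, which was below the array median on all 4 BxPC3 arrays and entered the test through Panc1, so that this value is no measure of a difference between the lines.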

How the results depend on the processing

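The count of members called in BxPC3, 0 of 7, was 1 with arrays centred on their median over the genes tested or with quantile scaling (IRF9). It was 2 with cyclic loess, a prior trend or the mean of the probe sets (IRF9 and IRF1). Over probe sets, 0 of 11 became 1 with the filter on all 6 arrays and 3 with a prior trend. No member passed over both lines under any of 11 alternatives. The interaction fit gave 2 members, IRF9 and the dim IRF7; the count was 1 with no filter, with the filter on all 6 arrays (where IRF7 is not tested) and with arrays centred, and between 0 and 3 without single BxPC3 arrays. IRF9 was the 1 member 2-fold lower in Panc1, and the count was 0 with arrays centred or quantile scaling. The 29 type I interferon targets that fell were 19 with the filter on all 6 arrays, and 3 to 24 without single arrays. The 679 genes called in BxPC3 were 445 with no filter, 1317 with a prior trend, 384 with a replicate block, and 89 to 610 without single arrays. The interaction called 2008 genes, 1042 with no filter, 3324 with a prior trend and 234 to 3402 without single arrays; the fit over both lines called 12, and 0 to 28 over its alternatives. Equal replicate numbers are not said to pair arrays, and the deviations of same-numbered BxPC3 arrays correlated at -0.17; the crossed pairing, added after seeing the data, called 0 members, as did the replicate block. The causes were not tested. Signal near background limits IRF7 in BxPC3 and the dim probe sets of IRF5 and STAT3.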

Other observations

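The following genes of the lists were chosen after their values were seen. NLRC5, the transactivator of class I genes, fell in BxPC3 from 6.17 to 5.39 (-0.77 ± 0.09, adjusted p = 0.0147 by limma, and 0.136 and 0.122 without control array 1 or 2). In Panc1 it read 3.58 in the control and 4.38 in the knockout, both under the array median. The paralogs of IFITM1 were also lower on the Panc1 knockout array, IFITM2 at 10.26 against 11.60 and IFITM3 at 11.03 against 12.18. In BxPC3 IFITM2 was at -0.38 (adjusted p = 0.0962) and IFITM3 at -0.29 (0.0932). The Panc1 minus BxPC3 effect was -3.90 for IFITM1 (interaction adjusted p = 0.0025), -0.96 for IFITM2 (0.0237) and -0.85 for IFITM3 (0.0170). Without control array 1 or 2 those of IFITM2 (0.107 and 0.0813) and IFITM3 (0.109 and 0.108) missed the threshold. These genes are near-identical and their probe sets may read each other.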
